A study of Homo sapiens with 6 samples.

Results

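SR proteins, heterogeneous nuclear ribonucleoproteins (hnRNPs), CLK kinases and the TRA2 proteins were followed as 1 group of splicing-factor genes in cells exposed to neighbours that produce reactive oxygen species (ROS). The members were all genes named SRSF with a number, HNRNP, CLK1 to CLK4, TRA2A or TRA2B in the count files, without pseudogene names, that had at least 10 reads in at least 3 libraries. This gave 37 of 23686 genes: 12 SRSF genes, 18 protein-coding HNRNP genes, 4 CLK genes, 2 TRA2 genes and the antisense RNA HNRNPU-AS1. HNRNPDL and HNRNPLL carry the older symbols HNRPDL and HNRPLL in the files. They were therefore not members and were counted among the other regulators of alternative splicing. Of 44 matching names, 4 were pseudogenes and 3 had too few reads. HNRNPCL1 and the read-through gene HNRNPUL2-BSCL2 had 0 reads in every library, and HNRNPH2 had 0 to 7, so it reached 10 reads in no library. Reads that fall on more than 1 gene were left out as ambiguous, so a low count need not mean low expression. HNRNPUL2, which shares sequence with its read-through gene, can be undercounted for the same reason. HNRNPA1L2, the member with the fewest reads, had 165 to 322.

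RNA was sequenced from GFP+ cells (carrying green fluorescent protein) of HEK293, a widely used human line from embryonic kidney. The 3 co-culture samples shared a dish for 10 h with ROS-producing HEK293 (+DAAO) cells in 25 µM D-alanine; DAAO commonly stands for D-amino acid oxidase, which releases hydrogen peroxide as it oxidises D-alanine. The 3 control samples are titled Wt controls and are also GFP+ HEK293 cells, and the GFP+ cells were sorted by flow cytometry before RNA extraction. The HEK293 cells of both groups were grown in high-glucose medium with serum. The labels give the same treatment text for all 6 samples, so whether the controls received D-alanine or any partner cells is not stated. Nothing in the labels says that the 3 samples of a group came from separate cultures, so p-values measure only the spread between these samples.

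SR proteins bind exonic enhancers through an RNA-recognition motif and help the spliceosome to choose splice sites through a domain rich in arginine and serine. The hnRNPs coat nascent transcripts and often act against SR proteins at the same exons. CLK kinases phosphorylate the arginine-serine domain in the nucleus and so release SR proteins from nuclear speckles. Many of these genes limit their own level by splicing in an exon with an early stop codon or by keeping an intron, which lowers the RNA through nonsense-mediated decay or retention in the nucleus. Stress, heat shock in particular, is known to change the splicing of CLK1 and the phosphorylation of SR proteins. The counts used here are totals per gene, so they show RNA level and neither isoforms nor protein.

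Gene-assigned reads ran from 19091085 to 36250314 per library. Co-culture libraries 2 and 3 stood apart in strand purity. The median gene had 0.124% and 0.211% of its reads on the wrong strand there, against 1.57% to 1.75% in the other 4 libraries, so once strand class is fitted, co-culture library 1 is the sole co-culture library that can be set against controls of its own class. Co-culture library 1 had 8.42% multimapping reads, against 6.48% to 7.03% in the others. A fit with strand class as a batch term is given below. The part of the other differences in the results was not tested. Of 8 markers chosen for HEK293 (KRT8, KRT18, VIM, NEFL, NEFM, INA, PAX2 and LDHB), 8 had reads in every library and 7 had at least 10 CPM (the read count scaled to library size). Their summed level was 2836 to 3036 CPM in controls and 3299 to 3511 CPM in co-culture. The immune, endothelial and hepatocyte marker lists each summed to under 2 CPM in every library, with CD3E and TTR at 0. The 4 fibroblast markers summed to 41.2 to 50.4 CPM in controls and 46.9 to 50.4 CPM in co-culture, mostly COL1A1, with DCN and PDGFRB at 0.455 CPM or less. DAO, the human gene for the oxidase, had 0 reads, though a transgene of another sequence would not be counted there.

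CLK2 was the single member to pass the test. With edgeR's quasi-likelihood test and an adjusted p under 0.05 over all 14582 tested genes, 1 of 37 members (2.70%) was higher in co-culture and 0 were lower. Over all tested genes 4.83% were called, 2.66% higher and 2.17% lower, so the members' share of higher genes was near the background. At an unadjusted p under 0.05 there were 4 higher and 6 lower members, 27.0% of them against 23.2% of all genes. DESeq2 called 2 members, both higher, and 7.08% of all genes, and limma-voom called 1 member. The CPM ranges of the groups did not overlap for 12 members (32.4%), 5 higher and 7 lower, where 29.3% of all tested genes did not overlap, 14.3% higher and 15.0% lower. The median log2 fold change of the members was -0.041, with -0.0022 over all tested genes. Their median absolute log2 fold change was 0.087 against 0.13, with no matching of the tested genes by read number. In bulk RNA, less RNA per cell and fewer cells with the RNA cannot be told apart.

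**Figure D1:**
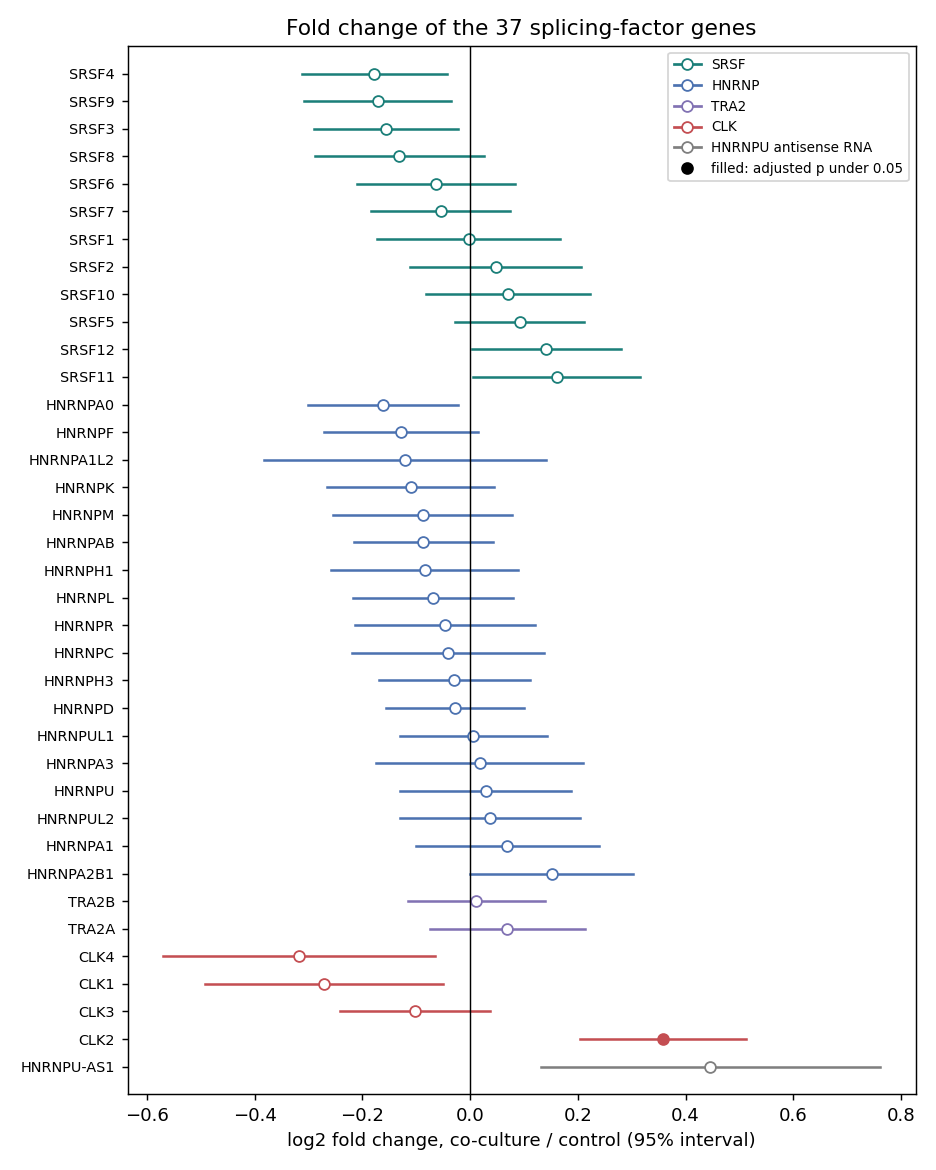
Log2 fold change (co-culture over control) of each of the 37 members with its 95% interval from edgeR with group as the only term, coloured by family. CLK2 is the single filled point, and the intervals of the SRSF genes lie within 1.25-fold of no change.

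The 95% interval of the fold change lay within 1.25-fold of no change, in either direction, for 12 of 12 SRSF genes, 17 of 18 protein-coding HNRNP genes and 2 of 2 TRA2 genes, and for 1 of 4 CLK genes. It lay within 1.5-fold for all 36 protein-coding members and not for HNRNPU-AS1. CLK1, CLK4 and HNRNPA1L2 were the uncalled protein-coding members whose intervals reached past 1.25-fold. These counts hold for the fit with group as the only term and were not made for the other settings. With a batch term for strand class the log2 fold change was 0.28 for SRSF11 and -0.22 for HNRNPC, farther from no change. Over all tested genes the interval of the group-only fit lay within 1.25-fold for 44.9% and within 1.5-fold for 75.1%. The tested genes were not matched to the members by read number, and few reads widen the interval. The members held between 1278 reads (HNRNPA1L2) and 337616 reads (HNRNPA2B1) over the 6 libraries. Summed over the family, the SRSF genes stood at 3487 ± 166 CPM in controls and 3432 ± 56.5 CPM in co-culture (SD, n = 3 each). The HNRNP genes summed to 10931 ± 587 and 10898 ± 191 CPM, the CLK genes to 182 ± 9.74 and 179 ± 10.6 CPM, and the TRA2 genes to 374 ± 19.0 and 384 ± 8.86 CPM. Each pair of sums differed by less than the SD of its controls, while the TRA2 sums differed by slightly more than the SD in co-culture.

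Among the CLK kinases the log2 fold changes ran from -0.32 to 0.36, and CLK2 rose. CLK2, which phosphorylates SR proteins in the nucleus, stood at 48.8, 49.4 and 51.7 CPM in controls 1 to 3 and at 62.3, 69.2 and 60.9 CPM in co-culture libraries 1 to 3. The lowest co-culture value was above the highest control value. The mean rose from 49.98 ± 1.53 to 64.2 ± 4.45 CPM (SD, n = 3 each), 1.28-fold, with a log2 fold change of 0.36 (SE 0.070, 95% interval 0.20 to 0.51, adjusted p 0.0196 by edgeR). Co-culture library 1, which shares the strand class of the controls, was above all 3 controls as well, but it is a single library. With a batch term for strand class, a comparison that rests on that library, the log2 fold change was 0.32. CLK2 has a processed pseudogene elsewhere in the genome, and reads that fit both places are not counted.

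CLK1 and CLK4 are the closest relatives within the family, and both had lower means in co-culture without passing the test. CLK1 stood at 50.7, 48.8 and 59.5 CPM in controls and at 47.2, 46.9 and 38.4 CPM in co-culture, so the groups did not overlap, with control 3 highest and co-culture library 3 lowest. Its log2 fold change was -0.27 (SE 0.10, 95% interval -0.49 to -0.050, adjusted p 0.138 by edgeR). CLK4 stood at 21.0, 22.1 and 24.7 CPM in controls and at 18.1, 21.1 and 15.7 CPM in co-culture, where library 2 fell just inside the control range. Its log2 fold change was -0.32 (SE 0.11, 95% interval -0.57 to -0.065, adjusted p 0.130 by edgeR). CLK3 stood at 58.7, 53.8 and 57.0 CPM in controls and at 52.0, 52.4 and 53.5 CPM in co-culture. Its groups were separate by a narrow gap, with a log2 fold change of -0.10 (SE 0.063, adjusted p 0.362 by edgeR).

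**Figure D2:**
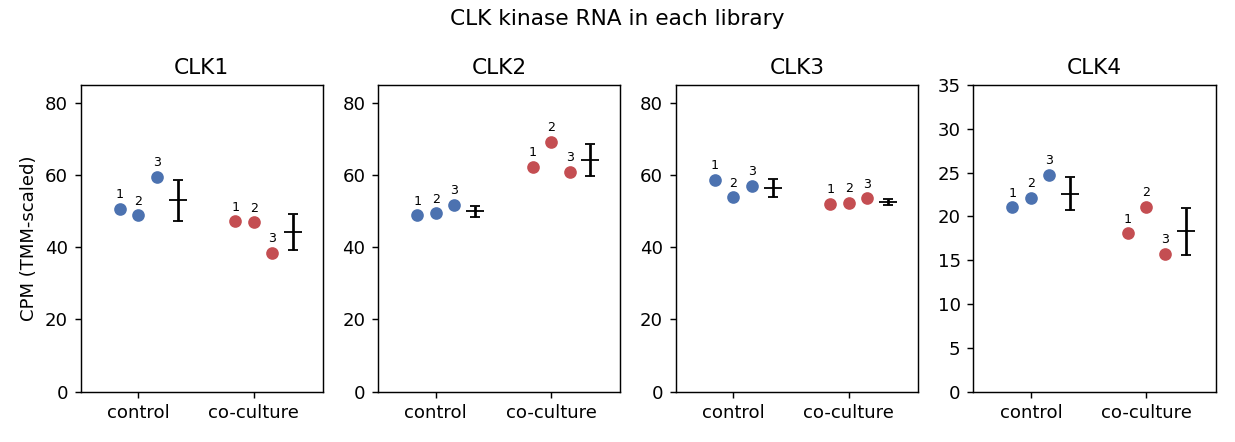
CPM of the 4 CLK genes in each library (points numbered by replicate; bars give the mean ± SD of 3). The axes start at 0 and that of CLK4 has its own scale; CLK2 is higher in the 3 co-culture libraries, at 60.9 to 69.2 CPM against 48.8 to 51.7 CPM.

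Ratios of reads between genes of the same library do not depend on how libraries are scaled. In controls 1 to 3 there were 2.32, 2.24 and 2.09 CLK2 reads for each CLK4 read, and in co-culture libraries 1 to 3 there were 3.45, 3.28 and 3.89. The ratio of CLK2 to CLK1 was 0.962, 1.01 and 0.869 in controls and 1.32, 1.48 and 1.59 in co-culture. That of CLK2 to CLK3 was 0.831, 0.918 and 0.907 against 1.20, 1.32 and 1.14. The 3 ratios with CLK2 did not overlap between the groups, and their log2 means were higher in co-culture by 0.67, 0.62 and 0.46. They share the CLK2 reads already described as higher, so they are not 3 separate observations. The ratio of CLK1 to CLK4 was 2.41, 2.21 and 2.41 in controls and 2.61, 2.22 and 2.45 in co-culture, so the groups overlapped, with log2 means of 1.23 ± 0.071 and 1.28 ± 0.12 (SD, n = 3 each). In a 2-sided exact permutation test of 7 pairs (6 among the CLK genes, and TRA2A with TRA2B), 3 samples against 3 cannot give a p below 0.10. The 3 pairs with CLK2 and the TRA2 pair had that smallest p (adjusted 0.175 over the 7 pairs), and the other 3 pairs had p-values from 0.20 to 0.50 and adjusted values from 0.28 to 0.50.

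**Figure D3:**
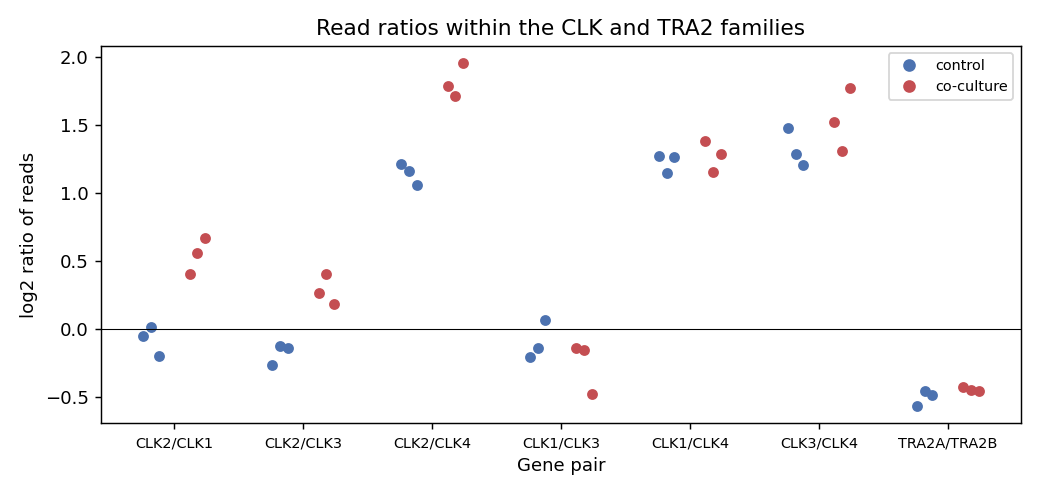
Log2 ratio of reads for each of the 7 gene pairs; every point is 1 library, blue for control and red for co-culture. The 3 pairs that contain CLK2 and, by a narrow gap, TRA2A/TRA2B show co-culture points above all control points, while CLK1/CLK4 overlaps.

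The start regions of the gene that rose and of the pair with lower means are shown for comparison, as the 250 bases before the first listed transcription start in RefSeq (GRCh38.p14), 5′ to 3′ on the gene's strand. All 3 lie upstream of the gene on the minus strand, CLK2 at chr1:155273505-155273754, CLK1 at chr2:200864659-200864908 and CLK4 at chr5:178627051-178627300. Capitals mark matches, on either strand, to any of 7 motifs: the GC box GGGCGG, the E-box CACGTG, the cAMP response element TGACGTCA, the AP-1 site TGANTCA, the antioxidant response element core TGACNNNGC, the heat shock element core GAANNTTC and the ETS site CCGGAAG.
CLK2: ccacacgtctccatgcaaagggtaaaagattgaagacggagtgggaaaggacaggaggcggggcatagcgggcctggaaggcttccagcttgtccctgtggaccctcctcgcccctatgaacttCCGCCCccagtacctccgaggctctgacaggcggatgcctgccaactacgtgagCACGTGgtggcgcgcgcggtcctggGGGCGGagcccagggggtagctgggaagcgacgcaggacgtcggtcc
CLK1: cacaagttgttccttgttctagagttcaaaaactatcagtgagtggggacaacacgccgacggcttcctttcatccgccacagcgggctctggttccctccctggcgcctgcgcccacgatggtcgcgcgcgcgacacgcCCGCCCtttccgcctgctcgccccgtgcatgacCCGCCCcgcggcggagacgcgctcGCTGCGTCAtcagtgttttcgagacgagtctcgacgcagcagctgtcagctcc
CLK4: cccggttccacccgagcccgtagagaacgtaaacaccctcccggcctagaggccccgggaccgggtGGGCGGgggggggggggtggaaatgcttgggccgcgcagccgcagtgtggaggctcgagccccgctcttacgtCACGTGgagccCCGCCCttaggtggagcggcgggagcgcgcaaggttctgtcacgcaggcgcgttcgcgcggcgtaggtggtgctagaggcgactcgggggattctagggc

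The 3 windows had a GC content of 65.2%, 64.4% and 71.2%, and each held 2 GC boxes. CLK2 and CLK4 each held 1 E-box, starting 72 and 111 bases before the start, and CLK1 held none. CLK1 held 1 antioxidant response element core, 53 bases before the start. No 2 matches overlapped in these windows, and none of the 3 held the other 4 motifs. Of 37 members, 33 had a window in the table. The GC box was in 21 of the 33 (63.6%) and in 42.5% of 34943 windows of all genes, the E-box in 6 (18.2%) against 6.32%, and the antioxidant response element core in 6 (18.2%) against 10.9%. The heat shock element core was in 3 (9.09%) against 5.80%, the ETS site in 4 (12.1%) against 8.48%, and the AP-1 site and cAMP response element in 0 of 33 against 6.59% and 1.63%. The 34943 windows outnumber the 23686 genes of the count files and were not matched to the members by gene type or expression. The differences in share can therefore not be read as a trait of splicing genes. A match describes the letters and is no evidence of binding.

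The call of CLK2 was lost in 5 of 14 other settings, while its log2 fold change stayed between 0.30 and 0.40. Leaving out co-culture 1 gave 0.38 (adjusted p 0.0813 by edgeR), leaving out co-culture 2 gave 0.30 (0.129) and leaving out control 2 gave 0.35 (0.107). The replicate number as a block gave 0.36 (adjusted p 0.0716 by edgeR), and a batch term for strand class gave 0.32 (0.287). The lowest adjusted p of the 14 was 0.00143, from DESeq2, and the highest 0.287. Over the same 14 settings the log2 fold change ran from -0.33 to -0.17 for CLK1 and from -0.43 to -0.21 for CLK4. Leaving out co-culture 3 gave -0.17 for CLK1 and -0.21 for CLK4, and leaving out control 3 gave -0.18 and -0.25.

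**Figure D4:**
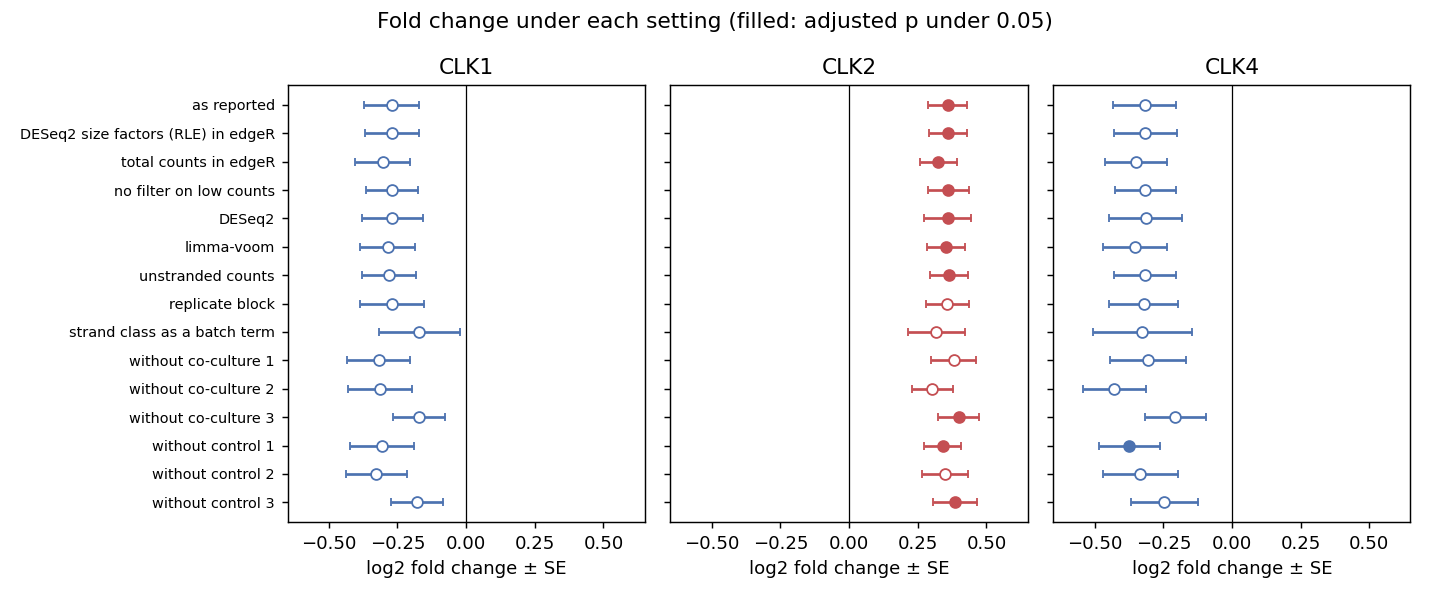
Log2 fold change ± SE of CLK1, CLK2 and CLK4 as reported and in 14 other settings; filled points passed an adjusted p of 0.05. CLK2 stays between 0.30 and 0.40 in the 14 settings, CLK1 and CLK4 stay below 0, and CLK4 passes only without control 1.

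Among the SR proteins, 5 of 12 genes had a log2 fold change above 0 and 7 below, from -0.18 to 0.16, with a median of -0.029. By edgeR's test 0 of 12 passed, 5 had an unadjusted p under 0.05, and DESeq2 and limma-voom called none. SRSF1, the founding member of the family, was the most abundant per length and stood at 599, 719.7 and 710.3 CPM in controls and at 686, 677 and 662 CPM in co-culture, inside the control range. Its log2 fold change was -0.0029 (SE 0.077, 95% interval -0.17 to 0.17, adjusted p 0.987 by edgeR). SRSF2, also known as SC35 and a component of nuclear speckles, stood at 346, 403 and 407 CPM in controls and at 395, 404 and 396 CPM in co-culture (log2 fold change 0.047, SE 0.072, adjusted p 0.735 by edgeR). In both genes control 1 was the lowest library.

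SRSF3, the smallest SR protein and one that also takes part in RNA export, stood at 593, 629.7 and 598 CPM in controls and at 552, 528 and 554 CPM in co-culture. The groups did not overlap, and the log2 fold change was -0.16 (SE 0.061, 95% interval -0.29 to -0.022, adjusted p 0.156 by edgeR). SRSF4 had the lowest log2 fold change of the family (-0.18, SE 0.061, 95% interval -0.31 to -0.043, adjusted p 0.116 by edgeR). It stood at 180.5, 171 and 178 CPM in controls against 166, 149 and 154 CPM in co-culture, with no overlap. SRSF9 was the third SR gene with lower and separate groups, at 239 ± 6.57 against 212 ± 11.6 CPM (SD, n = 3 each; log2 fold change -0.17, edgeR adjusted p 0.129). Reads of SRSF9 overlap a neighbour on the other strand, and its count without regard to strand was 41.4% of the one used. SRSF11 had the highest log2 fold change of the family, with 341, 344 and 340.3 CPM in controls against 415, 383 and 349 CPM in co-culture. All co-culture libraries were above the controls, library 3 by little (log2 fold change 0.16, SE 0.071, 95% interval 0.0059 to 0.32, adjusted p 0.200 by edgeR). SRSF5 and SRSF12 also had higher and separate groups, by 0.092 and 0.14 on the log2 scale (adjusted p 0.339 and 0.207 by edgeR). SRSF6, SRSF7, SRSF8 and SRSF10 had log2 fold changes of -0.064, -0.055, -0.13 and 0.070 with overlapping groups. SRSF3 and SRSF7, which are close relatives, thus stood at -0.16 and -0.055, with 95% intervals that overlap.

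Of the 18 protein-coding HNRNP genes, 6 had a log2 fold change above 0 and 12 below, from -0.16 to 0.15, with a median of -0.044. By edgeR's test 0 of 18 passed, 1 had an unadjusted p under 0.05, and DESeq2 and limma-voom called none. HNRNPA2B1, an RNA-binding protein that also reads modified adenosines, was the most abundant member per length and stood at 2102, 2317 and 2314 CPM in controls and at 2523, 2471 and 2482 CPM in co-culture. The groups did not overlap (log2 fold change 0.15, SE 0.069, 95% interval -9.8e-05 to 0.30, adjusted p 0.216 by edgeR). HNRNPC, which binds uridine tracts and blocks cryptic exons, stood at 746, 814 and 784 CPM in controls and at 671, 801 and 807 CPM in co-culture, with co-culture library 1 alone below the control range (log2 fold change -0.041, SE 0.081, adjusted p 0.801 by edgeR). HNRNPK, which binds cytidine-rich RNA, stood at 959, 1052 and 1072 CPM in controls and at 905, 951 and 1000.4 CPM in co-culture, and the groups overlapped (log2 fold change -0.11, SE 0.071, adjusted p 0.377 by edgeR).

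HNRNPA0 had the lowest log2 fold change of the family, with 393, 395 and 356 CPM in controls against 337, 338 and 347 CPM in co-culture and no overlap (-0.16, SE 0.063, 95% interval -0.30 to -0.023, adjusted p 0.155 by edgeR). HNRNPAB was the other HNRNP gene with lower and separate groups, at -0.087 (edgeR adjusted p 0.409). HNRNPD, HNRNPH3, HNRNPUL1, HNRNPA3, HNRNPU and HNRNPUL2 lay between -0.029 and 0.037, with edgeR adjusted p-values from 0.806 to 0.966. HNRNPF, HNRNPM, HNRNPH1, HNRNPL and HNRNPR lay between -0.13 and -0.047 with overlapping groups. HNRNPA1 stood at 50.1 ± 2.46 CPM in controls and 52.5 ± 4.44 CPM in co-culture (log2 fold change 0.069, edgeR adjusted p 0.632). HNRNPA1L2 stood at 9.35 ± 0.568 and 8.60 ± 0.656 CPM (log2 fold change -0.12, adjusted p 0.580 by edgeR). HNRNPA1 and HNRNPA1L2, a gene derived from a copy of it, have many near-identical relatives in the genome, and reads that fit several places are not counted, so the level of both is uncertain and a lower bound.

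TRA2A and TRA2B, relatives of the fly sex-determination factor transformer-2 that bind purine-rich enhancers, did not pass. TRA2A stood at 142, 164 and 158 CPM in controls and at 162, 159 and 166 CPM in co-culture (log2 fold change 0.069, SE 0.065, 95% interval -0.075 to 0.21, adjusted p 0.566 by edgeR). TRA2B stood at 211, 226 and 222 CPM in controls and at 218, 218 and 228 CPM in co-culture (log2 fold change 0.012, SE 0.058, 95% interval -0.12 to 0.14, adjusted p 0.927 by edgeR). Control 1 was the lowest library for both genes.

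HNRNPU-AS1 is an RNA from the strand opposite HNRNPU and had the largest fold change of the members without passing the test. It stood at 74.0, 66.0 and 82.7 CPM in controls and at 110.2, 115 and 79.9 CPM in co-culture. Co-culture libraries 1 and 2 were above the controls and library 3 was within their range. The log2 fold change was 0.45 (SE 0.14, 95% interval 0.13 to 0.76, adjusted p 0.102 by edgeR). DESeq2 called it (0.45, adjusted p 0.00891), and so did edgeR without co-culture library 3 (0.60, adjusted p 0.0212), with a range over the 14 settings from 0.00891 to 0.312. Reads on the opposite strand made up 26.8% of the stranded reads over HNRNPU-AS1, so its level rests on strand-aware counting. HNRNPU itself stood at 1383 ± 104 CPM in controls and 1411 ± 31.4 CPM in co-culture (SD, n = 3 each), with a log2 fold change of 0.029 (SE 0.072, adjusted p 0.842 by edgeR).

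Per kilobase of transcript the protein-coding members ran from 6.54 CPM per kb (HNRNPA1L2) to 673 CPM per kb (HNRNPA2B1) over all libraries. Lengths were the median over each gene's protein-coding transcripts in GENCODE release 29, so levels between genes are approximate. HNRNPA2B1 led with 638 ± 35.1 CPM per kb in controls and 708 ± 7.68 in co-culture (SD, n = 3 each). HNRNPC followed at 489 ± 21.2 and 475 ± 48.2, and SRSF1 at 478 ± 47.5 and 477 ± 8.26, and HNRNPC and SRSF1 did not differ beyond their spread. The next were HNRNPK, HNRNPH1 and HNRNPU, at 327 to 368 CPM per kb in controls. SRSF3 and SRSF2 came next among the SR proteins, at 214 ± 5.63 and 207 ± 2.75 CPM per kb in co-culture. The kinases were low in the order, with CLK1 at 28.4 ± 3.06, CLK3 at 25.3 ± 1.11, CLK2 at 23.6 ± 0.721 and CLK4 at 11.7 ± 0.991 CPM per kb in controls. In co-culture CLK2 stood at 30.3 ± 2.10 CPM per kb, above CLK1 at 23.7 ± 2.69 and CLK3 at 23.6 ± 0.356.

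Control 1 was the lowest of the 3 controls for 26 of 37 members (70.3%) and for 42.9% of all tested genes. It was the lowest of all 6 libraries for 12 members (32.4%, against 26.4% of all tested genes), among them SRSF1, SRSF2, SRSF10, HNRNPA2B1, HNRNPU and both TRA2 genes. Without control 1, 10 members (27.0%) passed edgeR's test, where 20.8% of all tested genes did. CLK2 was the 1 higher member (log2 fold change 0.34, adjusted p 0.00186). The 9 lower members were CLK4 (-0.37), SRSF9 (-0.19), SRSF8 (-0.19), HNRNPF (-0.17), SRSF3 (-0.17), HNRNPH1 (-0.17), SRSF4 (-0.16), HNRNPM (-0.16) and HNRNPK (-0.16), with edgeR adjusted p-values from 0.0166 to 0.0447. The share of all genes called lower in that fit was 10.3%. None of these 9 genes passed in another of the 14 settings.

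**Figure D5:**
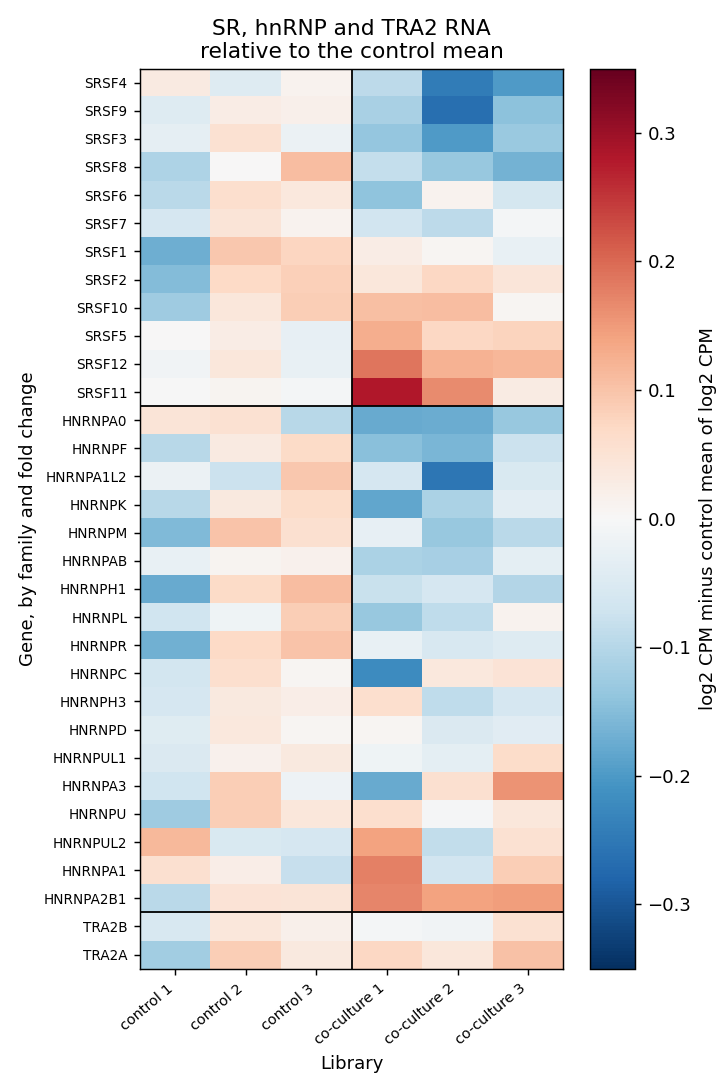
Level of the 32 SRSF, HNRNP and TRA2 genes in each library as log2 CPM minus the mean of the controls (colour), ordered by family and fold change; the vertical line parts controls from co-culture. Control 1 is blue for SRSF1, HNRNPM, HNRNPH1 and HNRNPR, and the rows of SRSF4, SRSF9, SRSF3 and HNRNPA0 are blue in the 3 co-culture libraries.

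Transcripts of the kinds named above as background are listed for many members. In GENCODE release 29, 28 of the 36 protein-coding members (77.8%) had at least 1 transcript marked for nonsense-mediated decay, against 41.9% of 13433 tested protein-coding genes. A transcript with a retained intron was listed for 27 of 36 (75.0%), against 56.7%. The tested genes were not matched to the members by expression or by number of listed transcripts. The differences in share can therefore not be read as a trait of the members. Gene totals do not separate such transcripts from the others.

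Genes around the members in the same pathway were counted in 5 lists. They held 148 tested genes, of which 7 (4.73%) passed edgeR's test, 4 higher and 3 lower, where 4.83% of all tested genes did. Among 7 kinases of SR proteins and speckles such as SRPK1 and SRPK2, 0 passed and 1 had an unadjusted p under 0.05, and DESeq2 and limma-voom called none. Among 28 SR-related proteins, 1 was higher and 0 lower (8 at an unadjusted p under 0.05; 4 called by DESeq2, 1 by limma-voom). That gene, U2SURP, a partner of the U2 particle, stood at 183, 204 and 211 CPM in controls and at 265, 263 and 230.5 CPM in co-culture (log2 fold change 0.34, SE 0.076, adjusted p 0.0314 by edgeR).

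Of 47 other regulators of alternative splicing, 2 were higher and 2 lower. By edgeR's test 12 had an unadjusted p under 0.05, and DESeq2 called 5 and limma-voom 3. SF1, the protein that recognises the branch point, stood at 320.3, 325 and 340.3 CPM in controls and at 270.2, 249 and 273 CPM in co-culture (log2 fold change -0.31, SE 0.062, adjusted p 0.0209 by edgeR). SFPQ, a paraspeckle protein, fell from 655 to 548 CPM (log2 fold change -0.26, SE 0.064, adjusted p 0.0454 by edgeR). MBNL2, a muscleblind protein, and ESRP2, an epithelial splicing regulator, rose by 0.34 and 0.29 on the log2 scale (adjusted p 0.0493 and 0.0316 by edgeR). In the core spliceosome 2 of 48 genes passed, 6 had an unadjusted p under 0.05, and DESeq2 and limma-voom called 2 each. U2AF1, the subunit that reads the 3′ splice site, fell by 0.26 on the log2 scale (adjusted p 0.0490 by edgeR). Of 18 nonsense-mediated decay factors 0 passed, 5 had an unadjusted p under 0.05, and DESeq2 called 1 and limma-voom none. The medians of the 5 lists lay between -0.083 and 0.012. Of the 7 genes called in these lists, none kept an adjusted p under 0.05 in all 14 settings. MBNL2 kept it in 4 of the 14, U2AF1 in 6, SFPQ and ESRP2 in 7 each, and SF1 and U2SURP in 9 each.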

How the data were processed

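The deposited values were counts of reads per gene from 6 stranded mRNA libraries, 1 file each. The authors used STAR 2.53a and FastQC with build hg18, per the submitters' processing notes; the annotation is not given in the sources used here. Reverse-strand counts were used, and multimapping (6.48% to 8.42%), ambiguous (0.835% to 1.01%) and gene-free reads were left out. A single read was worth 0.0279 to 0.0522 CPM, which covers counting error only.

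Groups came from the sample titles. Genes were filtered with filterByExpr (minimum 10), which left 14582 of 23686, scaled by edgeR's TMM method and tested with edgeR 4.0.16 (R 4.3.3), group being the only term, with Benjamini-Hochberg adjustment over all tested genes at 0.05. SEs are the absolute log2 fold change over the square root of F; intervals are at 95%. The scripts were tested on simulated data. Alternatives were other scalings, no filter, DESeq2 1.42.0, limma-voom 3.58.1, unstranded counts, 2 added terms and leaving out each library.

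The members and gene lists were chosen with earlier results of these data known. Values per library were given for members past the threshold, the CLK and TRA2 genes, and in the SRSF and HNRNP families the 3 most abundant per kb and the largest change in each direction. HNRNPU-AS1 was given apart. List genes past the threshold were named, up to 5 per direction. The values of 1 list gene are not reported here.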

Additional observations from a re-analysis of the deposited data

How the results depend on the processing

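The number of higher members was 1 as reported, 2 with DESeq2, and 0 with the replicate block or a batch term for strand class. It ran from 0 to 2 over the fits that left out a library, and the number of lower members from 0 to 9, the 9 coming without control 1. All tested genes called numbered 704 as reported, 164 with the replicate block and 29 with a batch term for strand class, and 65 to 3069 over the fits that left out a library (123, 74 and 321 without co-culture libraries 1, 2 and 3, and 3069 and 65 without controls 1 and 2). Leaving out a library gave medians from -0.083 to 0.0061 for the SRSF genes, where the value without control 1 moved by more than the spread between libraries. The cause was not tested. Chi-square per degree of freedom, a measure of difference in read counts, was 10.8 and 18.5 for control 1 against controls 2 and 3. Between controls 2 and 3 it was 4.73. In co-culture it was 4.74 between libraries 1 and 2, and 13.4 and 12.2 for library 3 against libraries 1 and 2. More reads raise this measure, and the part of these differences in the calls was not tested. With total counts in place of trimmed means the median of all tested genes was -0.035, 33 of 37 members kept the sign of their log2 fold change, and 310 of 882 called genes were higher, against 388 of 704.

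Samples with the same replicate number did not deviate together (correlations across genes of -0.042, -0.085 and -0.091). Deviations were taken from each group's own mean, so these correlations depend on each other and do not settle whether the samples were paired. With the replicate block CLK2 had a log2 fold change of 0.36 and an edgeR adjusted p of 0.0716. Of 518 member values in 14 settings, 502 kept the side of the threshold and none that was called changed sign. Depth limits HNRNPA1L2 and CLK4 most.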

Other observations

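Some members share reads with a neighbour on the other strand. For SRSF9 the count made without regard to strand was 41.4% of the reverse-strand count, for HNRNPU-AS1 it was 64.0% and for SRSF2 90.8%, while it was 98.6% to 109% for the other 34 members. In RefSeq (GRCh38.p14), GATC is the neighbour of SRSF9. The forward strand held 26.8% of the stranded reads over HNRNPU-AS1 and 8.55% over SRSF11, and 0.557% to 5.39% over the other 35 members.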
